A study of Mus musculus with 4 samples.

Results

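The cytochrome P450 genes of families 1 to 4 were followed in the small intestine of cystic fibrosis (CF) and wild type (WT) mice, with and without lubiprostone. Members were all probe sets whose gene symbol is Cyp followed by a digit from 1 to 4 and a letter, so that families such as Cyp26, Cyp27 and Cyp51 were left out. This gave 62 genes of 19324 on the array and 73 probe sets of 45101. Of these genes, 56 have a probe set of their own and 6 are measured only by probe sets that the annotation lists for a pair of members.

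Each of the 4 groups was measured on 1 Affymetrix array with RNA pooled from several mice, so every value below stands for 1 pool and there is no replicate. CF + lubiprostone was a pool of 8 Cftr null mice (cftr-tm1Unc) given lubiprostone, a bicyclic fatty acid that stimulates intestinal fluid secretion, by daily gavage at 10 µg/kg for 2 weeks, and CF control was a pool of 10 untreated Cftr null mice. WT + lubiprostone was a pool of 7 wild type mice on the same treatment, and WT control was a pool of untreated wild type mice, 10 in the series' design text and 8 in the study's methods. All mice were littermates of heterozygous crosses on the C57BL/6 strain of the labels, C57BL/6J in the methods, and lived on the liquid diet Peptamen, which keeps the CF intestine from becoming obstructed. RNA came from the whole small intestine with the mesentery removed, and ages were not given. Since tissue was measured in bulk, fewer cells of a type and less RNA per cell cannot be told apart.

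P450 enzymes are heme proteins of the endoplasmic reticulum that insert oxygen into lipophilic molecules, with electrons passed on by cytochrome P450 reductase and cytochrome b5. Families 1 to 3 hold most of the enzymes that oxidize drugs, plant compounds and pollutants, and enterocytes at the villus tip use them on what is absorbed from the diet. Family 4 enzymes hydroxylate the end of fatty acid chains and of eicosanoids. Their transcription follows sensors of small molecules: the aryl hydrocarbon receptor (AhR) for Cyp1a1, the receptors CAR and PXR for Cyp2b, Cyp2c and Cyp3a genes, and PPAR-alpha, a fatty acid sensor, for Cyp4a genes.

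The signal is the scaled brightness of a probe set on a linear scale. The median signal of an array lay between 109 and 124 and served as the line between dim and measurable, and signals at or above the 75th percentile (464 to 482) were taken as bright. Of the 56 genes with their own probe set, 28 reached the median on at least 1 array and 28 stayed below it on all 4. Signals of the 34 probe sets below the median everywhere ran from 0.42 to 108. They included those of Cyp1a2, Cyp2e1 and 5 of the 8 Cyp2d genes. All 3 genes of the Cyp2e, Cyp2f and Cyp2g group were dim, while 8 of 11 Cyp2c genes and 3 of 5 Cyp3a genes reached the median. Of the 28 measurable genes, 18 were bright on at least 1 array.

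Among member genes with a probe set of their own, the largest differences between the control pools were found in Cyp2c29, Cyp2b10, Cyp3a11 and Cyp3a25, while Cyp3a13 differed little. Stretches of 300 bases around the start of these 5 genes (250 before and 50 after, from RefSeq on build GRCm38.p6) are shown because they belong to the members with the largest differences and to an abundant Cyp3a gene with a small one. Capitals mark AGGTCA and AGTTCA on either strand (TGACCT and TGAACT when read on the other strand), the half-sites to which nuclear receptors such as PXR, CAR and PPAR-alpha bind in pairs.

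Cyp3a11, chr5:145879805-145880104, minus strand: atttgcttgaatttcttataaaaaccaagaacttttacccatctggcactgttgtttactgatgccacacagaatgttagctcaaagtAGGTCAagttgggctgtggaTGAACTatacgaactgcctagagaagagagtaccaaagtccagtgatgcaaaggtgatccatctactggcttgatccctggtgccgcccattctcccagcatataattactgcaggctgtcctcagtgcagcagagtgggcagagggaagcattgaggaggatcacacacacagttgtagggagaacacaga
Cyp3a25, chr5:146009569-146009868, minus strand: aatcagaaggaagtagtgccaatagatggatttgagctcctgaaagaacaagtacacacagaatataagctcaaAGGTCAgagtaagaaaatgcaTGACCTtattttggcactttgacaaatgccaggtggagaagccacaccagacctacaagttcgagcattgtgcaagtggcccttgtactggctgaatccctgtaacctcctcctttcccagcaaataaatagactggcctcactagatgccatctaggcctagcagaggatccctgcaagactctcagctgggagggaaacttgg
Cyp2c29, chr19:39286835-39287134, plus strand: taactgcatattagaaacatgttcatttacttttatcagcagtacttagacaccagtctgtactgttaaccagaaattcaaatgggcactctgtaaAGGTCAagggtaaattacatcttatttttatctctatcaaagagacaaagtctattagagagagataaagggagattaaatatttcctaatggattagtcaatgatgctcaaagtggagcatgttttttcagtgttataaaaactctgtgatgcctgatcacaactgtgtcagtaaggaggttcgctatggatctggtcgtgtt
Cyp2b10, chr7:25897408-25897707, plus strand: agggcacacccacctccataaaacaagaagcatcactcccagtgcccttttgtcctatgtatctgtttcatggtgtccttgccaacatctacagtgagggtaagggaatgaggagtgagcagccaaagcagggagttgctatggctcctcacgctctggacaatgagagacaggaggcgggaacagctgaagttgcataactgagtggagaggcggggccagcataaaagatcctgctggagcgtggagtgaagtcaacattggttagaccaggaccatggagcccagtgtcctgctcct
Cyp3a13, chr5:137921570-137921869, minus strand: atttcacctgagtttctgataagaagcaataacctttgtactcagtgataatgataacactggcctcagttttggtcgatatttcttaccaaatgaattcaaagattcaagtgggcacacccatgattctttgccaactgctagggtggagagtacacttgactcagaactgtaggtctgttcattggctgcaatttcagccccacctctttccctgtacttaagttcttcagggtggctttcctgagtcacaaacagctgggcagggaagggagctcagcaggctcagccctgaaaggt

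The windows of Cyp3a11, Cyp3a25 and Cyp2c29 hold AGGTCA, and those of Cyp2b10 and Cyp3a13 hold neither half-site. The second start listed for Cyp3a25 is not shown. Of the 21 members described by name below, 19 have a window in the table (Cyp2c23 and Cyp2d22 do not), and AGGTCA is in 3 of these 19. Over all 48 members with a window it is in 14 (29.2%), against 16.3% of the 32851 windows of the mouse table. AGTTCA is in 12.5% of member windows and 14.0% of all windows. The AhR core TNGCGTG is in 2.08% and 5.07%, the HNF1 half-site GTTAAT in 8.33% and 7.1%, and the C/EBP motif TTGCNNAA in 20.8% and 10.8%. Paired sites, with AGGTCA repeated after a gap of 1 or of 4 bases, are in 0 of 48 member windows and in 0.0396% and 0.0152% of all. All motifs were searched on both strands; the paired sites contain AGGTCA. Some member windows are near copies, so that the 48 are not independent. Those of Cyp2b13 and Cyp2b9 are 99.3% identical and those of Cyp2a4 and Cyp2a5 97.7%. Each pair holds AGGTCA and TTGCNNAA at matching places, and these genes were dim on all 4 arrays. Whether the member shares differ from those of all windows was not tested. A match describes the letters of this window only, and known enhancers of several of these genes lie farther away.

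The first comparison asks how the P450 genes differ in the untreated CF intestine. In CF control against WT control, 24 members could be counted, that is, a probe set reached the array median in at least 1 of both pools. Of these, 13 passed the study's threshold of 3-fold as lower in CF control, against 1.82% of the 11806 genes counted on the array. For 2 of them, Cyp2c23 and Cyp2j9, the CF signal was dim and the bound falls short of 3-fold, so that 11 passed as a bound. No member was at least 3-fold higher, against 1.16% of all genes. At any size, 22 of 24 were lower, against 51.8% of all genes, and the exceptions were Cyp1b1 and Cyp4f18. Cyp2c23, Cyp2c29 and Cyp2j9 were counted only through their WT control signal, so that their direction was set by the rule for counting. The median log2 ratio of the members was -1.72, against -0.02 for all genes, and with signals below the array median raised to that median it was -1.54. Among the 18 bright members all 18 were lower, 11 of them at least 3-fold. Of all bright genes, 48.7% were lower and 1.51% at least 3-fold lower. Cyp1a1, Cyp2b10, Cyp2c29, Cyp2c55 and Cyp2d22 were bright only in WT control. The rule for brightness set the direction of their bright probe sets. With 1 pool per group, no test of a difference between groups was possible. The only measured spread is that between probe sets of the same gene on the same arrays, whose median SD of the log2 ratio was 0.24 over all genes and 0.26 over the 7 members with several measurable probe sets.

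**Figure D1:**
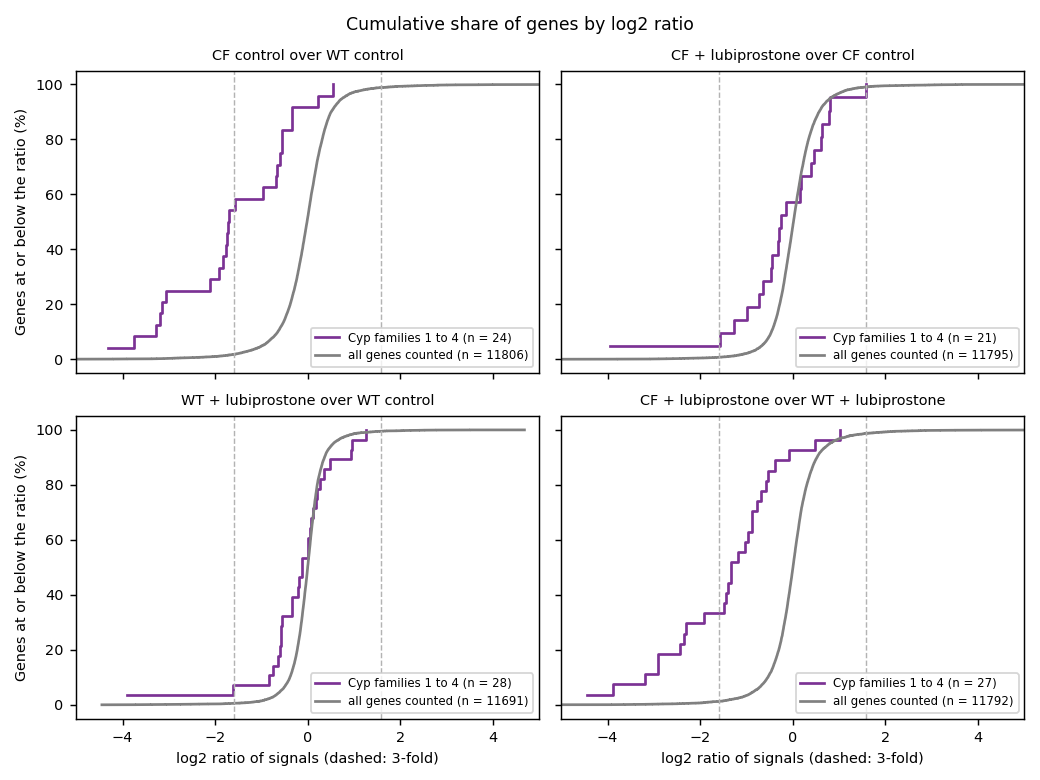
Cumulative share of genes (%, vertical axis) at or below each log2 ratio of signals (horizontal axis) in the 4 comparisons, for the P450 members (purple) and all genes counted (grey), with dashed lines at 3-fold. In both CF over WT comparisons the members' curve lies left of that of all genes (medians -1.72 and -1.34 against -0.02 and 0.0026), and in both lubiprostone comparisons the curves run close (medians -0.25 and -0.12).

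Among the receptors' classic xenobiotic targets, Cyp3a11, the PXR-responsive main Cyp3a enzyme of the mouse gut and liver, had a signal of 4395 in CF + lubiprostone and 2845 in CF control, against 33124 in WT + lubiprostone and 27739.5 in WT control. Both CF pools were far below both WT pools, and the CF control signal was 9.75-fold lower than that of WT control. Its neighbour Cyp3a25, a further steroid and drug oxidizing enzyme, had 1910.5 in CF + lubiprostone, 1455 in CF control, 14368 in WT + lubiprostone and 13315 in WT control. It was 9.15-fold lower in the CF control pool than in the WT one. The probe set shared by Cyp3a41b and Cyp3a41a had 49.6 and 26 in CF + lubiprostone and CF control, both below the array median, against 157 and 181 in WT + lubiprostone and WT control, so its difference between control pools was at least 1.66-fold. The start windows of that pair are 97.0% identical in an end-to-end alignment, and no probe set tells them apart.

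Cyp3a13, which shares the substrates of the subfamily but lies apart from it, was different. Its signal was 19723 in CF + lubiprostone, 12989 in CF control, 20775 in WT + lubiprostone and 19665 in WT control. The CF control pool was 1.51-fold lower than WT control, and the other 3 pools lay within a narrow range. On chromosome 5 of the annotation, 122 protein-coding genes separate Cyp3a13 from the run of Cyp3a16, Cyp3a41b, Cyp3a41a, Cyp3a44, Cyp3a11 and Cyp3a25, which follow one another with 0 genes between them. Cyp3a16 and Cyp3a44 were below the array median on all 4 arrays.

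Cyp2b10, the standard target gene of CAR, is read by 3 measurable probe sets. The first had 79.7 in CF + lubiprostone, 361 in CF control, 2687 in WT + lubiprostone and 4443 in WT control. The second had 155 in CF + lubiprostone, 300.2 in CF control, 3603 in WT + lubiprostone and 4756 in WT control. The third had 118 in CF + lubiprostone, 189 in CF control, 1563 in WT + lubiprostone and 2406 in WT control. All 3 put both CF pools far below both WT pools. Averaged over them, Cyp2b10 was 13.5-fold lower in the CF control pool than in the WT one (log2 ratio -3.76 ± 0.20, SD over 3 probe sets). Cyp2s1, which is its direct neighbour on chromosome 7 and acts on retinoids in epithelia, had 1241 in CF + lubiprostone, 1097 in CF control, 1864 in WT + lubiprostone and 1613 in WT control and was 1.47-fold lower in the CF control pool than in the WT one.

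**Figure D2:**
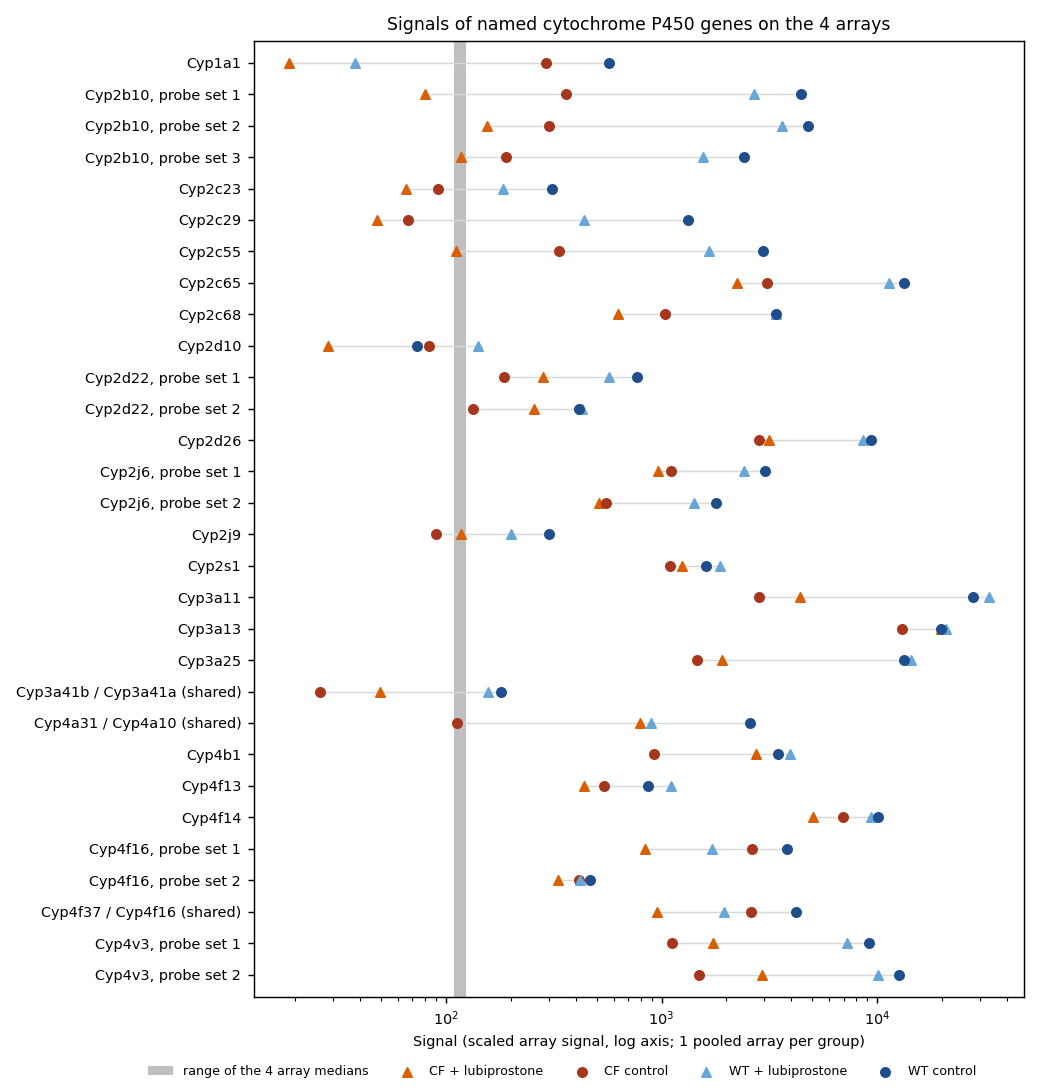
Signal (log axis, scaled array signal) of each measurable probe set of the named members on the 4 arrays, 1 pooled array per group; triangles stand for lubiprostone, red and orange for CF, blue for WT, and the grey band spans the array medians (109 to 124). For Cyp3a11, Cyp2b10, Cyp2c65 and Cyp4v3 both CF pools lie well below both WT pools, while the 4 pools of Cyp3a13 lie between 12989 and 20775.

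The Cyp2c enzymes oxidize drugs and form epoxides and hydroxy products from arachidonic and linoleic acid. All 6 Cyp2c genes that could be counted were lower in the CF control pool than in the WT one, with a median log2 ratio of -1.94. By measured ratio 5 of them were at least 3-fold lower, and the bound for Cyp2c23 falls short of 3-fold. Over all genes, 51.8% were lower and 1.82% at least 3-fold lower. Cyp2c29, an epoxygenase that responds to CAR, had 47.7 in CF + lubiprostone, 66.8 in CF control, 435 in WT + lubiprostone and 1332 in WT control. Both CF signals were below the array median, so that the difference between control pools was at least 12.2-fold. Cyp2c55, likewise inducible through CAR and PXR, had 111 in CF + lubiprostone, 334 in CF control, 1655 in WT + lubiprostone and 2949.9 in WT control, 8.84-fold lower in the CF control pool than in the WT one. Again both CF pools were below both WT pools.

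Cyp2c65, the gene next to Cyp2c55 on chromosome 19, had 2227 in CF + lubiprostone, 3078 in CF control, 11386 in WT + lubiprostone and 13275 in WT control. It was 4.31-fold lower in the CF control pool than in the WT one. Cyp2c68 had 626 and 1042 in the CF + lubiprostone and CF control pools, against 3382 and 3393 in WT + lubiprostone and WT control, a 3.25-fold lower signal in the untreated CF pool. Cyp2c23, an arachidonic acid epoxygenase separated from the other Cyp2c genes by 52 protein-coding genes, had 65.6 in CF + lubiprostone, 91.5 in CF control, 184 in WT + lubiprostone and 311 in WT control. It was at least 2.84-fold lower in the CF control pool than in the WT one, the CF signals being dim. The sixth gene, Cyp2c38, was 1.61-fold lower.

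In the Cyp2d subfamily, Cyp2d26 had 3157 in CF + lubiprostone, 2821 in CF control, 8628 in WT + lubiprostone and 9342 in WT control, a 3.31-fold lower signal in the CF control pool than in the WT one. Cyp2d22, regarded as the mouse counterpart of the main human CYP2D drug oxidase, had 283 in CF + lubiprostone, 186 in CF control, 573 in WT + lubiprostone and 767 in WT control with one probe set. With the other it had 255 in CF + lubiprostone, 133 in CF control, 429.7 in WT + lubiprostone and 413 in WT control. It was 3.58-fold lower in the CF control pool than in the WT one, and both probe sets put the CF control pool lowest, then CF + lubiprostone, then both WT pools. Cyp2d10 was dim in 3 pools, with 28.5 in CF + lubiprostone, 83.7 in CF control and 73.4 in WT control, and had 140.4 in WT + lubiprostone.

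The Cyp2j enzymes epoxidize arachidonic acid, and Cyp2j6 is a form of the gut. Its 2 probe sets had 958 and 515 in CF + lubiprostone, 1101 and 552 in CF control, 2417 and 1418 in WT + lubiprostone, and 3033 and 1789.85 in WT control. At 2.99-fold lower in the CF control pool than in the WT one, Cyp2j6 was the member just outside the threshold, and Cyp2c68 at 3.25-fold was the one just inside. Cyp2j9, its neighbour, had 118 in CF + lubiprostone, 89.9 in CF control, 201 in WT + lubiprostone and 301 in WT control, at least 2.75-fold lower in the CF control pool than in the WT one.

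Family 4 was divided. Cyp4v3, a fatty acid omega-hydroxylase, had 1728 and 2938 with its 2 probe sets in CF + lubiprostone and 1119 and 1494 in CF control, against 7208 and 10090.2 in WT + lubiprostone and 9163 and 12592 in WT control. It was 8.31-fold lower in the CF control pool than in the WT one (log2 ratio -3.05 ± 0.03, SD over 2 probe sets). Cyp4b1, which hydroxylates short and medium chain fatty acids, had 2736 in CF + lubiprostone, 918 in CF control, 3942 in WT + lubiprostone and 3472 in WT control, so that only the untreated CF pool stood apart, at 3.78-fold below WT control.

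The probe set shared by Cyp4a31 and Cyp4a10, the fatty acid hydroxylases under PPAR-alpha, had 791 in CF + lubiprostone, 112 in CF control, 891 in WT + lubiprostone and 2562 in WT control. It was 22.9-fold lower in the CF control pool than in the WT one, with the CF control signal near the array median of 109. The other probe sets of the subfamily, for Cyp4a12a, Cyp4a14 and Cyp4a31 alone, were below the median on all arrays, with a highest signal of 108.

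The Cyp4f genes, hydroxylases of leukotrienes and long fatty acids, differed less between the control pools than these. Cyp4f14, which inactivates leukotriene B4, had 5058 in CF + lubiprostone, 6934 in CF control, 9321 in WT + lubiprostone and 10129 in WT control, and was 1.46-fold lower in the CF control pool than in the WT one. Cyp4f13, its neighbour, had 436 in CF + lubiprostone, 542 in CF control, 1105 in WT + lubiprostone and 863 in WT control and was 1.59-fold lower in the CF control pool than in the WT one. Cyp4f16 had 836 in CF + lubiprostone, 2639 in CF control, 1708 in WT + lubiprostone and 3811 in WT control with one probe set. With the other, which carries the suffix for probes that can cross-hybridize, it had 330.5 in CF + lubiprostone, 414 in CF control, 419 in WT + lubiprostone and 464 in WT control, a narrower range. The probe set listed for both Cyp4f37 and Cyp4f16 had 949 in CF + lubiprostone, 2598 in CF control, 1949 in WT + lubiprostone and 4211 in WT control, with the pools in the order of the first. None of the 4 Cyp4f genes counted was 3-fold lower in CF control.

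Cyp1a1, the sensor gene of AhR activity, which oxidizes polycyclic hydrocarbons, had 18.7 in CF + lubiprostone and 291 in CF control, against 38.0 in WT + lubiprostone and 571 in WT control. Here the treatment and not the genotype divided the pools: both treated signals were far below the array median and both untreated ones above it. CF control was 1.97-fold lower than WT control.

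The second genotype comparison, CF + lubiprostone against WT + lubiprostone, rests on the other pair of arrays. Of 27 members counted, 9 were at least 3-fold lower in CF + lubiprostone, against 1.25% of all 11792 genes, and none was at least 3-fold higher, against 1.27%. At any size 25 were lower, against 49.7% of all genes, with Cyp1b1 and Cyp4f18 again higher. Cyp2c23, Cyp2c29, Cyp2c38, Cyp2c54, Cyp2c55, Cyp2c70, Cyp2d10, Cyp2j9 and Cyp2r1 were counted only through their WT + lubiprostone signal. Their direction was therefore set by the rule for counting. As bounds, Cyp2c54 was at least 1.07-fold, Cyp2c70 at least 1.24-fold and Cyp2r1 at least 1.30-fold lower. Among the 16 bright members, Cyp2c55 included, all 16 were lower, against 49.5% of all bright genes. Cyp2b10, Cyp2c55, Cyp2d22 and Cyp4f13 were bright only in WT + lubiprostone. The rule for brightness largely set the direction of their bright probe sets. The median log2 ratio was -1.34, against 0.0026 for all genes, and -0.88 with dim signals raised to the array median. The 9 genes were Cyp2b10 (at least 19.0-fold), Cyp2c55 (at least 13.8-fold), Cyp3a11 (7.54-fold), Cyp3a25 (7.52-fold), Cyp2c68 (5.41-fold), Cyp2c65 (5.11-fold), Cyp4v3 (3.79-fold), Cyp2c29 and Cyp2d10. The last of these had dim signals, and their bounds are at least 3.64-fold for Cyp2c29 and at least 1.17-fold for Cyp2d10, which therefore does not reach 3-fold as a bound.

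Both genotype comparisons share no array. Of 23 members counted in both, 23 had the same direction and 21 were lower in both. For Cyp2c23, Cyp2c29 and Cyp2j9 in both comparisons the rule for counting set the direction. It did so for Cyp2c38 and Cyp2c55 in the treated pools. Over all 11339 genes counted in both, 63.4% had the same direction and 32.6% were lower in both. Of the 13 that were 3-fold lower in the control pools, 8 were so in the treated pools as well (61.5% of that list, and 100% of the treated pools' list without Cyp2d10, which was dim in both control pools). Over all genes counted in both, 73 of the 180 that were 3-fold lower in the control pools were so in the treated ones (40.6% of that list, and 62.4% of the treated pools' list of 117). Cyp2c23, Cyp2d22, Cyp2d26, Cyp2j9 and Cyp4b1 passed the threshold in the control pools and not in the treated ones. In the treated pools they were at least 1.53-fold (Cyp2c23), 1.85-fold (Cyp2d22), 2.73-fold (Cyp2d26), at least 1.68-fold (Cyp2j9) and 1.44-fold (Cyp4b1) lower in CF. Whether these ratios differ between the pairs of pools was not tested. The shared Cyp4a31 and Cyp4a10 probe set was 1.13-fold lower in CF + lubiprostone than in WT + lubiprostone.

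**Figure D3:**
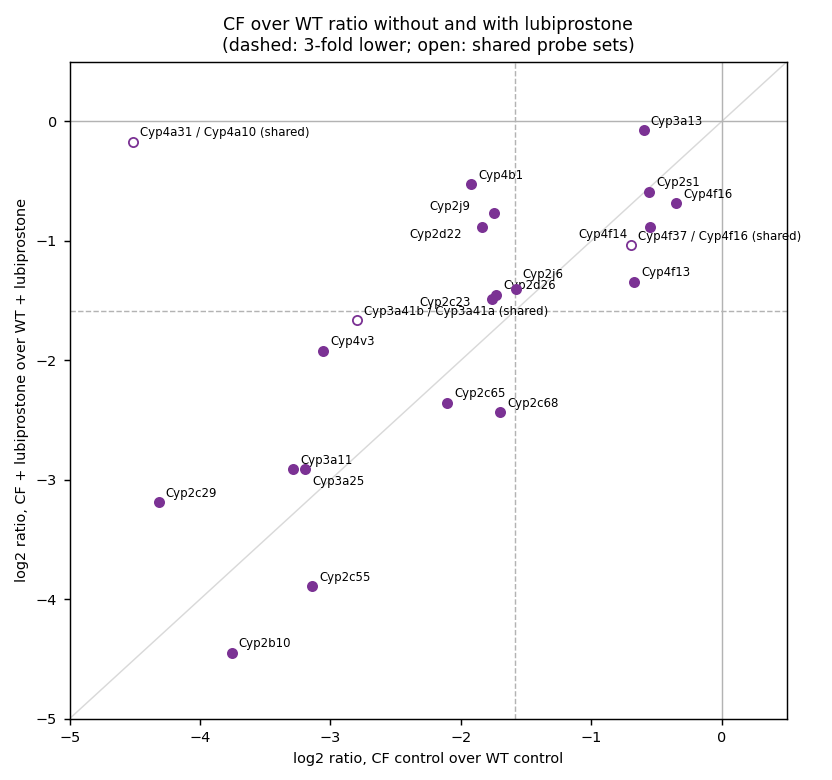
Log2 ratio of CF control over WT control (horizontal axis) against that of CF + lubiprostone over WT + lubiprostone (vertical axis) for each named member counted in both; open circles are shared probe sets, dashed lines mark 3-fold lower and the diagonal marks equal ratios. Cyp2b10, Cyp2c29, Cyp2c55, Cyp3a11 and Cyp3a25 lie at the lower left in both, and the shared Cyp4a31 and Cyp4a10 probe set lies at -4.51 and -0.17.

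The comparisons of treated with untreated mice ask what lubiprostone did within each genotype. They share arrays with the genotype comparisons, so that values are given side by side and no overlap with those is drawn. In CF + lubiprostone against CF control, 21 members were counted. By measured ratio 1 was 3-fold lower, Cyp1a1, against 0.738% of 11795 genes, but its treated signal was dim and 0 passed as a bound. None was at least 3-fold higher, against 0.941%. At any size 12 were lower and 9 higher, against 48.5% of all genes lower. Cyp1a1, Cyp2c38 and Cyp2c55 were counted only through CF control, so that the rule for counting largely set their direction. The median log2 ratio of the 21 members was -0.25, against 0.01 for all genes. Among the 13 bright members counted, 6 were lower and 7 higher, with a median of 0.16, so that the direction of the median turned. Of these, Cyp4f13 was bright only in CF control, so that the rule for brightness largely set its direction. In WT + lubiprostone against WT control, 28 were counted. Cyp1a1 and Cyp2c29 were at least 3-fold lower, against 0.573% of 11691 genes, and none was at least 3-fold higher, against 0.488%. At any size 17 were lower, against 50.5%, with a median of -0.12 against -0.0034 for all genes. Cyp1a1 was counted only through WT control, and Cyp2c54, Cyp2c70, Cyp2d10 and Cyp2r1 only through WT + lubiprostone. The rule for counting again largely set their direction.

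Cyp1a1 was at least 2.43-fold lower with lubiprostone in CF and at least 4.66-fold lower in WT, the treated signals being below the array median; the measured ratios were 15.5-fold and 15.0-fold. In both genotypes the treated pool was lower than its control. Other AhR targets had signals closer to one another. Tiparp had 894 in CF + lubiprostone, 729 in CF control, 789 in WT + lubiprostone and 854 in WT control, and Nqo1 had 821 in CF + lubiprostone, 904 in CF control, 1000.2 in WT + lubiprostone and 945 in WT control. Of the AhR target list, 4 of 6 genes could be counted in WT and 3 in CF, and none was 3-fold lower or higher with lubiprostone. Digestive enzyme genes of the pancreas moved the same way as Cyp1a1: all 5 measured, Cel, Cela2a, Cpb1, Ctrb1 and Prss2, were at least 3-fold lower with lubiprostone in both genotypes, with summed signals of 4725 in CF + lubiprostone and 21380 in CF control, and of 1684 in WT + lubiprostone and 18621 in WT control. Over all genes, 0.738% were at least 3-fold lower with lubiprostone in CF and 0.573% in WT. The part of the pancreas genes in the result for Cyp1a1 was not tested.

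Cyp2c29 was 3.06-fold lower in the treated WT pool than in the untreated one, and in CF both signals were dim. Cyp2c55 had a signal at least 2.79-fold lower in the treated CF pool than in the untreated one and 1.78-fold lower in the treated WT pool than in the untreated one. Cyp2b10 was at least 2.10-fold lower with lubiprostone in CF, where its probe sets spread by 0.79 (SD of the log2 ratio), and 1.498-fold lower in WT. All 4 Cyp2c genes counted in CF were lower with lubiprostone, against 48.5% of all genes, and in WT 5 of 8 were, against 50.5%. Cyp2c38 and Cyp2c55 were counted in CF only through CF control, and Cyp2c54 and Cyp2c70 in WT only through WT + lubiprostone. The rule for counting therefore largely set their direction.

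The 3 measurable Cyp3a genes were higher with lubiprostone in both genotypes, by small ratios. Cyp3a11 was 1.54-fold higher in CF and 1.19-fold in WT, Cyp3a13 1.52-fold and 1.06-fold, and Cyp3a25 1.31-fold and 1.08-fold. Cyp4b1 was 2.98-fold higher in the treated CF pool than in the untreated one, just outside the threshold, and 1.14-fold higher in the treated WT pool than in the untreated one. Cyp4v3 was 1.74-fold higher with lubiprostone in CF and 1.26-fold lower in WT, and Cyp2d22 was 1.71-fold higher in CF and 1.13-fold lower in WT. The shared Cyp4a31 and Cyp4a10 probe set was 7.06-fold higher in the treated CF pool than in the untreated one and 2.88-fold lower in the treated WT pool than in the untreated one. All 4 Cyp4f genes counted were lower with lubiprostone in CF, with a median log2 ratio of -0.39, and 3 of 4 in WT, with a median of -0.34. Over all genes, 48.5% were lower in CF and 50.5% in WT. For Cyp4f16 the brighter probe set was 3.16-fold lower with lubiprostone in CF and 2.23-fold lower in WT, and the one that can cross-hybridize 1.25-fold and 1.11-fold lower. The gene's average of both did not reach 3-fold in CF (1.99-fold), and the brighter probe set alone did. The probe set listed for both Cyp4f37 and Cyp4f16 was 2.74-fold lower with lubiprostone in CF and 2.16-fold lower in WT.

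**Figure D4:**
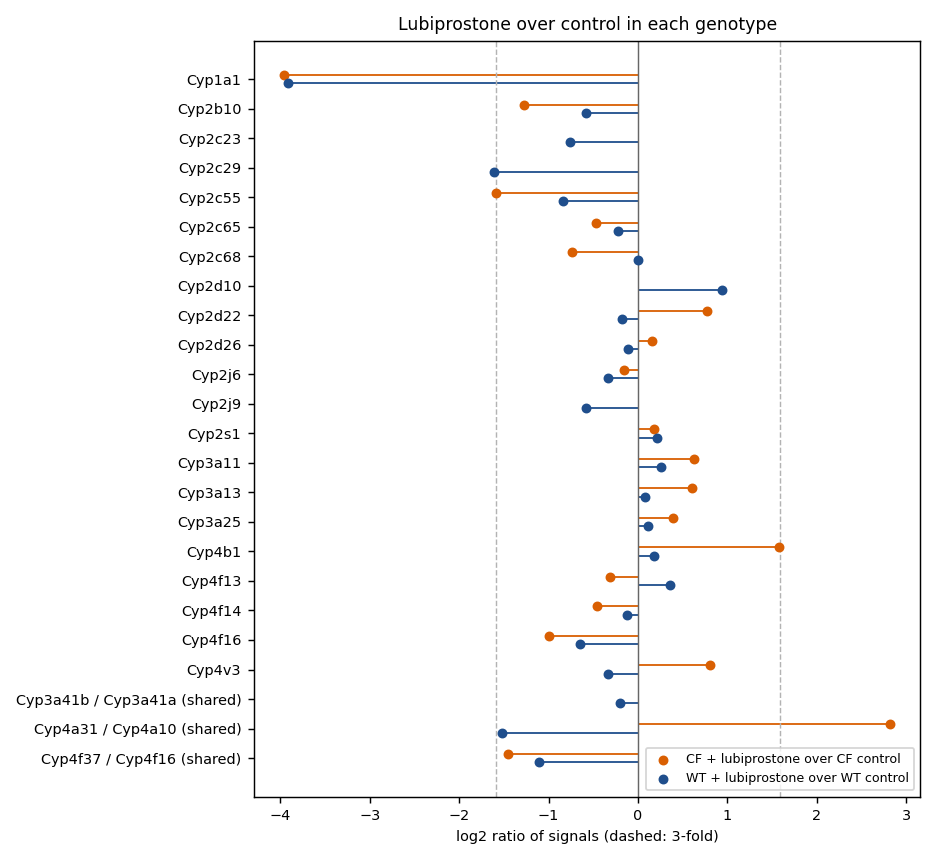
Log2 ratio of signals of lubiprostone over control pools (horizontal axis) for each named member and shared probe set, in CF (orange) and WT (blue), with dashed lines at 3-fold; a missing point means that both signals were dim. Cyp1a1 lies near -4 in both genotypes as measured, with treated signals below the array median, and the shared Cyp4a31 and Cyp4a10 probe set lies at 2.82 in CF and -1.52 in WT.

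The 7 measurable members without a description of their own had ratios, where they could be counted, between -0.69 and 0.55 (log2) in CF control against WT control and between -1.35 and 1.01 in CF + lubiprostone against WT + lubiprostone. None reached 3-fold in any comparison.

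Genes that work with the P450 enzymes or answer to the same receptors were then read from lists. The reductase gene Por was not analysed here. The other 5 of 6 genes on the list of electron donors were lower in the CF control pool than in the WT one, by small ratios (median log2 -0.43, against 51.8% of all genes lower). Cytochrome b5 (Cyb5a) had 9570.02 in CF + lubiprostone, 10217 in CF control, 14319 in WT + lubiprostone and 13808 in WT control. Genes of heme synthesis and breakdown were split, with 6 lower and 4 higher in the CF control pool than in the WT one (median -0.10, against 51.8% of all genes lower). Hmox1, which breaks down heme, had 452 in CF + lubiprostone, 103 in CF control, 109 in WT + lubiprostone and 122 in WT control. Only the treated CF pool was above its array's median, at least 4.13-fold above CF control and at least 3.69-fold above WT + lubiprostone. Of 17 receptors and partners, 13 were lower in the CF control pool than in the WT one (median -0.42, against 51.8% of all genes lower and 1.82% at least 3-fold lower). Ppara, the gene of PPAR-alpha, was the only one at least 3-fold lower, with 764 in CF + lubiprostone, 518 in CF control, 1712 in WT + lubiprostone and 1632 in WT control. Nr1i3, which encodes CAR, had 658 in CF + lubiprostone, 551 in CF control, 1237 in WT + lubiprostone and 961 in WT control. Nr1i2, which encodes PXR, had 793 in CF + lubiprostone, 706 in CF control, 788 in WT + lubiprostone and 938 in WT control, a smaller difference.

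Targets of CAR and PXR outside the P450 genes were lower in the CF control pool than in the WT one for 9 of 11, 5 of them at least 3-fold (median -0.82), where 51.8% of all genes were lower and 1.82% at least 3-fold. In CF + lubiprostone against WT + lubiprostone 9 of 11 were lower, 5 at least 3-fold (median -1.51), where 49.7% of all genes were lower and 1.25% at least 3-fold. Among them, the xenobiotic exporter Abcb1a had 1155 in CF + lubiprostone, 1009.7 in CF control, 5222 in WT + lubiprostone and 3925 in WT control. The retinal dehydrogenase Aldh1a1 had 2252 in CF + lubiprostone, 1596 in CF control, 8645 in WT + lubiprostone and 9591 in WT control. With lubiprostone none of the 11 reached 3-fold in either genotype.

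Targets of PPAR-alpha outside the P450 genes were lower in the CF control pool than in the WT one for 12 of 12, 5 of them at least 3-fold (median -0.998). In CF + lubiprostone against CF control all 12 PPAR-alpha targets were higher, 4 of them at least 3-fold (median 0.69), where 48.5% of all genes were lower and 0.941% at least 3-fold higher. In WT + lubiprostone against WT control 7 were lower and 5 higher (median -0.08), where 50.5% of all genes were lower. Pdk4, a switch from glucose to fatty acid use, had 1655 in CF + lubiprostone, 198 in CF control, 900.3 in WT + lubiprostone and 1460.5 in WT control. Acot1, an acyl-CoA thioesterase, had 1385 in CF + lubiprostone, 116 in CF control, 715 in WT + lubiprostone and 747 in WT control. In both genes the CF control pool was lowest. In CF control over WT control and CF + lubiprostone over CF control, the shared Cyp4a31 and Cyp4a10 probe set had this list's direction. The CF control array enters both comparisons. In CF + lubiprostone over WT + lubiprostone, 4 PPAR-alpha targets were lower and 8 higher (median 0.22), where 49.7% of all genes were lower. There the shared probe set was 1.13-fold lower.

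**Figure D5:**
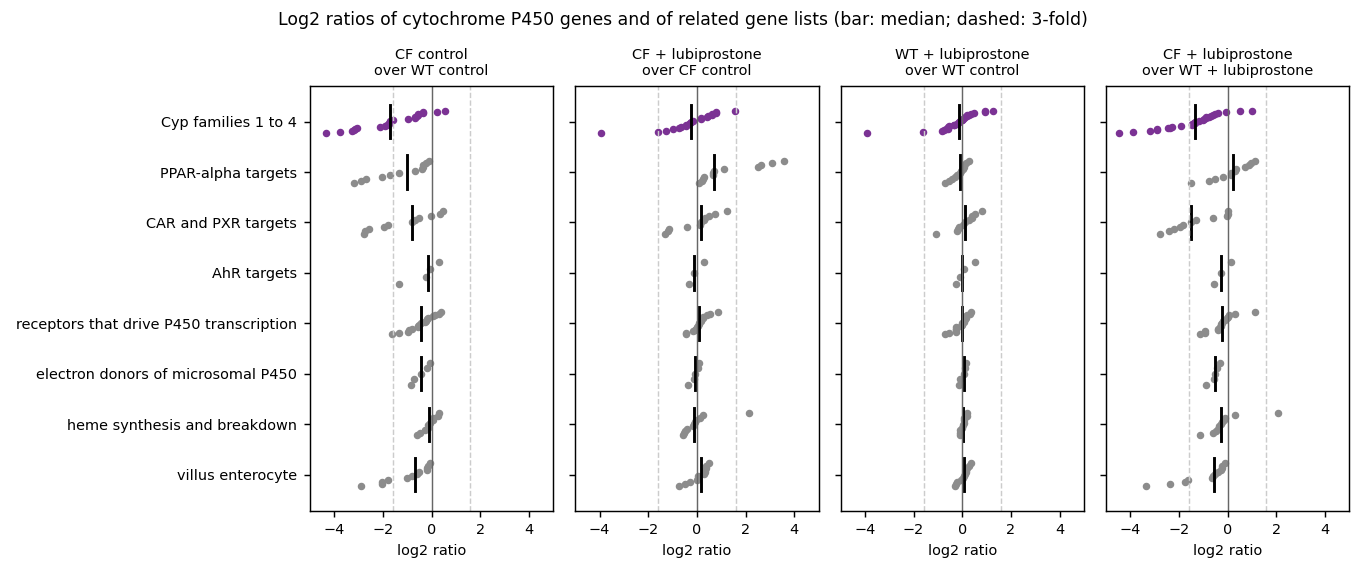
Log2 ratio of each counted gene (points) and list median (black bar) in the 4 comparisons, for the P450 members (purple) and 7 related lists (grey), with dashed lines at 3-fold. The P450 members and the targets of CAR and PXR have medians below 0 in both CF over WT comparisons (-1.72 and -0.82, then -1.34 and -1.51), and the targets of PPAR-alpha have a median of -0.998 for CF control over WT control and, for CF + lubiprostone over CF control, of 0.69.

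Of the 17 genes of other P450 families, 8 could be counted in CF control against WT control, with 3 lower and 5 higher (median log2 0.16), against 51.8% of all genes lower. The difference from families 1 to 4 was not tested. Cyp51, of cholesterol synthesis, had 1086 in CF + lubiprostone, 1551 in CF control, 444 in WT + lubiprostone and 393 in WT control. Cyp27a1, a sterol hydroxylase of bile acid synthesis, had 1186 in CF + lubiprostone, 529.9 in CF control, 1480.3 in WT + lubiprostone and 1687 in WT control.

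Marker genes gave the following values beside these results. Villus enterocytes, which carry most intestinal P450, had all 12 measured markers lower in the CF control pool than in the WT one (median -0.70, 4 at least 3-fold) and in CF + lubiprostone than in WT + lubiprostone (median -0.55). Their summed signal was 183715 in CF + lubiprostone, 161454 in CF control, 263736 in WT + lubiprostone and 243068 in WT control. The lactase gene Lct had 1992 in CF + lubiprostone, 3276 in CF control, 20420.1 in WT + lubiprostone and 24559 in WT control, and the villin gene Vil1 had 20389 in CF + lubiprostone, 20316 in CF control, 24067 in WT + lubiprostone and 23349 in WT control. The part of these cells in the P450 result was not tested. Of 10 liver markers, Alb, Ahsg, Fga, Fgb, Fgg, Hpx and Cyp7a1 were below the median on all arrays, and the summed signal of the other 3 was 413 in CF + lubiprostone, 275 in CF control, 581 in WT + lubiprostone and 566 in WT control. Smooth muscle markers were higher in the CF control pool than in the WT one, 6 of 6 (median 0.58). So were 4 of 5 measured mast cell markers, each of the 4 at least 3-fold by measured ratio. Cpa3 and Fcer1a were dim in WT control. Their bounds are at least 4.91-fold for Cpa3 and at least 1.88-fold for Fcer1a, which therefore does not reach 3-fold as a bound. The part of smooth muscle and mast cells in the P450 result was not tested. Crypt and proliferation markers were lower in 6 of 6 (median -0.52), and stomach markers in 5 of 5 counted (median -0.95), in CF + lubiprostone against WT + lubiprostone. In CF control against WT control 3 of 6 crypt markers and 1 of 4 stomach markers were lower. In WT + lubiprostone against WT control the 5 stomach markers were higher (median 0.90). The part of these cells was not tested either. Cftr had 379 in CF + lubiprostone, 334 in CF control, 1193 in WT + lubiprostone and 1404 in WT control. The pools were mixed in sex and not alike: Xist, of the inactive X chromosome, had 1716 in CF + lubiprostone, 1095 in CF control, 1587 in WT + lubiprostone and 476 in WT control, and the Y-linked Eif2s3y had 805 in CF + lubiprostone, 884 in CF control, 829 in WT + lubiprostone and 1242 in WT control. The part of sex in the P450 values was not tested.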

How the data were processed

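RNA pooled from the mice of each group was hybridized to 1 Affymetrix Mouse 430 2.0 array per group. The deposited values are signal intensities on a linear scale, which the authors extracted with GCOS (the MAS5 method, per the labels) and scaled: with 2% of the values trimmed from either end, every array averaged 500.003. Detection calls were not used here. How many arrays there are limits the precision: with 4 arrays, 1 per group, the spread between mice or pools is unknown, and no test was made.

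Gene names came from the platform annotation, updated through gene identifiers; 34958 probe sets carry 1 symbol. For each gene, log2 ratios were averaged over its probe sets that reached the array median on 1 array or more. A gene was counted where 1 such probe set reached the median on 1 of the arrays compared, and called at 3-fold. Where the lower signal was below its array's median, that median replaced it and the fold is written as at least that size. Named members were those bright on an array or 3-fold apart in a comparison. Promoter windows are RefSeq's (GRCm38.p6); identities are from global alignments. Members and lists were chosen with earlier results of these data known. Steps were tested on simulated data. Alternatives covered scaling, filters, summaries of probe sets and dim signals. Python 3.11, numpy 2.4.6, pandas 2.3.3, matplotlib 3.10.9 and biopython 1.88 were used.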

Additional observations from a re-analysis of the deposited data

Results flagged for a closer look

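The probe set shared by Cyp4a31 and Cyp4a10 was the only one of 24 named members and shared probe sets that lubiprostone moved by at least 1.5-fold in opposite directions in the genotypes. Its log2 ratio was 2.82 in CF + lubiprostone over CF control and -1.52 in WT + lubiprostone over WT control. The signals were 791 in CF + lubiprostone and 112 in CF control, and 891 in WT + lubiprostone and 2562 in WT control. The study lists Cyp4a10 as lower in untreated CF mice and raised by lubiprostone in CF mice, and reports that qRT-PCR verified these changes. With 1 pool per group on the arrays, the difference between the genotypes was not tested here.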

How the results depend on the processing

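Each count and median was recomputed under 9 alternatives. In CF control over WT control, 13 members were 3-fold lower in the main setting, 23 of 56 with no filter and 20 of 34 when probe sets were counted; it was 10 with the arrays scaled to the same median, 11 with the 75th percentile filter, 11 with dim signals raised to the array's median, and 13 under the other 4. Its median log2 ratio was -1.72, and -0.85 with no filter, which also made 3 members 3-fold higher. In CF + lubiprostone over WT + lubiprostone, 9 were 3-fold lower, 14 with no filter, which made 2 higher, 13 over probe sets, 7 with the 75th percentile filter and 8 with dim signals raised to the array's median; the median of -1.34 was -0.88 with no filter and -0.88 with signals below the array median set to it. In CF + lubiprostone over CF control, 1 was 3-fold lower in the main setting, 2 with the arrays scaled to the same median, 2 with quantile normalization (Cyp2c55 added in both) and 2 with the brightest probe set (Cyp4f16 added). The count was 4 with no filter, 3 over probe sets and 0 with dim signals raised to the array's median, since Cyp1a1 then fell short. Members 3-fold higher there numbered 7 with no filter and 1 over probe sets (the shared Cyp4a31 and Cyp4a10). Its median of -0.25 was 0.0251 with no filter and 0.16 with the 75th percentile filter, so that it has no stable direction. In WT + lubiprostone over WT control, no filter gave 6 lower and 3 higher members. The added members without the filter are dim probe sets. Scaling to the same median moved all genes by 0.18 (log2) in CF control over WT control and by -0.13 in CF + lubiprostone over CF control, and no other scaling by over 0.1.

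Of 644 values recomputed for single members, 620 moved by less than the median spread between probe sets, 24 by more, and 0 of those at 3-fold changed direction. Many of the 644 could not move, so that the 620 do not measure stability. Among the named members only Cyp2b10, Cyp2d22, Cyp2j6, Cyp4f16 and Cyp4v3 have several measurable probe sets. For the others, the alternatives for filters and for summaries of probe sets return the same value. Of 29 single results at 3-fold, 8 fell short under some alternative, among them Cyp2c68, Cyp2d26 and Cyp2j9 in CF control over WT control with scaling to the same median. Cyp2j6 passed 3-fold under quantile normalization. No paired analysis was possible because each group has 1 pooled array. Leaving out a replicate was not possible for the same reason. Signals below the array median give only bounds.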
